A study of Mus musculus with 12 samples.

Results

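Macrophages can switch T cells on or hold them back through ligands and receptors. In bone marrow-derived macrophages (BMDMs), 7 transcripts that encode such molecules, here called ligands for short, were followed. They were *Cd274* (PD-L1), *Pdcd1lg2* (PD-L2), *Cd80*, *Cd86*, *Cd40*, *Icosl* and *Lgals9* (galectin-9), taken by gene symbol from the 12960 genes of the deposited counts, where all 7 are listed. *Cd274* was chosen by its measured response to PF-06409577 (PF), which was more positive in WT than in knockout BMDMs. Its value in each single comparison and the difference between its responses are therefore given as a description without a test. The other members were put beside it for their function. After the low-count filter 6 of the 7 remained, and *Pdcd1lg2* did not, with 0 to 2 counts in each library.

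The BMDMs were primary cells grown from mouse marrow in medium with L929 supernatant, a source of M-CSF, and came from WT mice or from AMPKβ1-/- mice, which lack the β1 subunit of AMPK in every tissue. Cells of each genotype received vehicle (0.1% DMSO) or 10 μM PF, a small molecule that activates AMPK complexes containing β1, for 6 h. The 4 groups had 3 libraries each. No T cells or inflammatory stimulus are named in the labels for these cultures, and the age of the marrow donors is not given in the sources used here. Nothing in the labels says that the 3 libraries of a group came from separate mice or cultures, so p values measure the spread between these libraries, which may be technical. In bulk RNA, fewer cells that carry a transcript and less of it per cell cannot be told apart.

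A T cell that meets antigen reads further signals from the presenting cell. CD80 and CD86 bind CD28, which promotes activation, and CTLA-4, which restrains it, and PD-L1 and PD-L2 bind PD-1, which restrains T cells. CD40 receives the T cell's own CD40 ligand and licenses the presenting cell, ICOS ligand sustains helper T cells through ICOS, and galectin-9 is a ligand of TIM-3. Interferon-γ, through IRF1, is a well known inducer of PD-L1 in macrophages.

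The totals of the libraries ranged from 8935609 to 14358180 counts. Values are CPM, counts relative to a library size normalized by edgeR's TMM method, given as mean ± SD (n = 3), and tests are edgeR's quasi-likelihood test with Benjamini-Hochberg adjustment over the 10822 genes that passed the filter, where a gene was called at an adjusted p below 0.05. *Prkab1*, which encodes AMPKβ1, had at least 37.3 CPM in every WT library and at most 9.42 CPM in every AMPKβ1-/- library. The 8 macrophage markers summed to 25190 to 29680 CPM over all libraries, with *Lyz2* the highest among them. Of them 3 were called lower with PF in WT, among them *Csf1r* (7372 to 4937 CPM, log2 fold change −0.58, adjusted p = 0.00207), and knockout against WT with vehicle called 4 lower and 2 higher, with *Cd68* at 1677 against 2765 CPM. Of all tested genes 8.95% were called lower with PF in WT. Knockout against WT with vehicle called 59.7% of them in either direction. The part of the marker shifts in the ligand values was not tested. Dendritic cell, T cell, B cell and granulocyte markers summed to at most 1.46, 1.20, 2.35 and 1.39 CPM in any library. In that order the sums held 5 of 7, 3 of 6, 1 of 5 (*Cd79b*) and 5 of 8 listed markers. The others, among them *Xcr1*, *Cd3e* and *Ly6g*, were not analysed here. Fibroblast markers summed to 0.923 to 1.89 CPM in WT libraries and to 1.58 to 8.66 CPM in AMPKβ1-/- libraries. The libraries also differed in how counts followed GC content. The slope of log2 CPM per 10 percentage points of GC was 0.34 to 0.69 in WT vehicle, −0.054 to 0.35 in WT PF, −0.34 to −0.094 in AMPKβ1-/- vehicle and −0.49 to −0.32 in AMPKβ1-/- PF libraries. Values after removal of the GC and length trend were examined for the tested ligands in all comparisons. For other named genes they were examined only for PF in WT, and for the cell type markers not at all. A value printed without one is not thereby shown to be unchanged.

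PD-L1 transcript was 2.33 times as abundant with PF as with vehicle in WT BMDMs and 1.09 times in AMPKβ1-/- BMDMs. *Cd274* lies on chromosome 19 from 29367455 to 29388095 on the plus strand (GRCm38, GENCODE M21). It had 11.4, 11.7 and 18.8 CPM in the WT vehicle libraries (107, 127 and 189 counts) and 33.5, 31.3 and 33.2 CPM in the WT PF libraries (390, 334 and 432 counts). All WT PF libraries lay above all WT vehicle libraries, and the third vehicle library was the highest of its group. In AMPKβ1-/- BMDMs the values were 13.9, 15.3 and 14.5 CPM with vehicle and 15.8, 17.4 and 14.4 CPM with PF, and these groups overlapped. Means were 14 ± 4.18, 32.7 ± 1.21, 14.6 ± 0.735 and 15.9 ± 1.47 CPM in the same order of groups.

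On the log2 scale the PF response of *Cd274* was 1.22 (SE 0.16) in WT and 0.12 (SE 0.16) in AMPKβ1-/- BMDMs, and the responses differed by 1.1 (SE 0.22). Knockout against WT it was 0.06 with vehicle (SE 0.16) and −1.04 with PF (SE 0.15). These values are those that chose the gene or share their libraries with it. With the GC and length trend removed the WT response was 0.97, and without the third WT vehicle library it was 1.49, the lowest and highest of the alternatives run. The knockout value with vehicle had no firm sign, from −0.37 with that trend removed to 0.33 without the third WT vehicle library. The genotype effect averaged over both treatments is orthogonal to the difference between the responses in this balanced design. For *Cd274* it averages the values of 0.06 with vehicle and −1.04 with PF, so that it rests on the WT PF libraries that chose the gene. It is therefore also given without a test. It was −0.49 (SE 0.11) and lay between −0.82 with the trend removed and −0.31 with library size scaling.

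**Figure D1:**
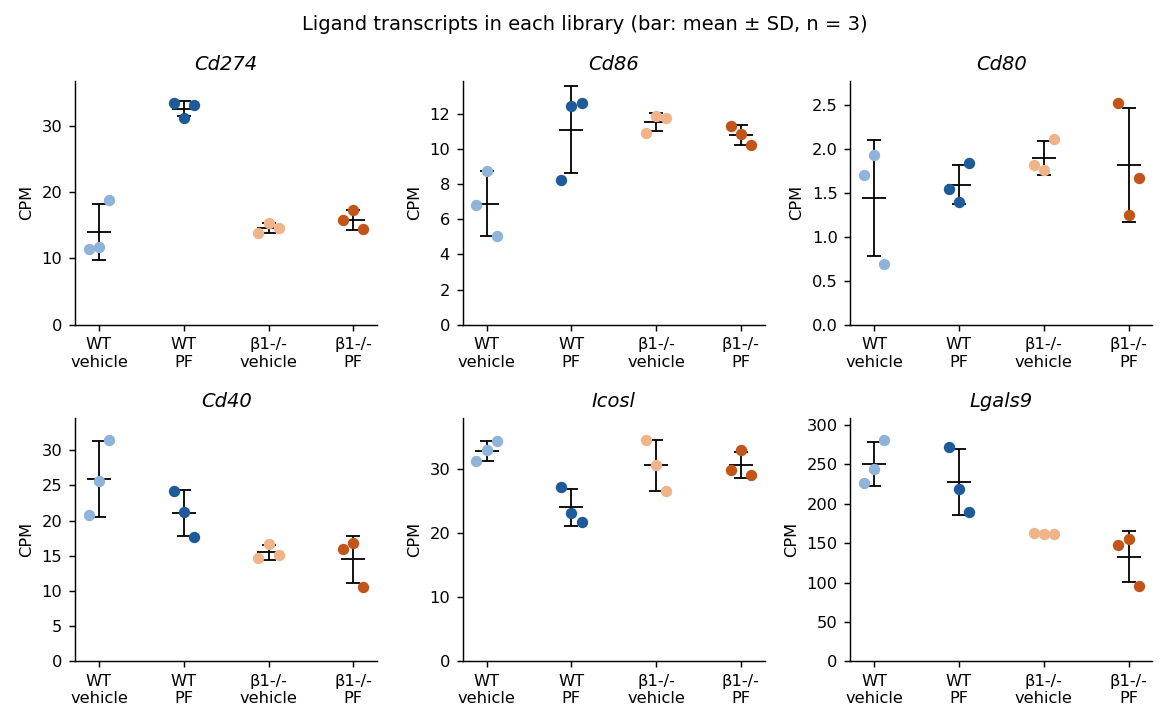
CPM of the 6 ligand transcripts that passed the filter, with 1 point per library in the 4 groups and black bars for the mean ± SD (n = 3, linear axes from 0). *Cd274* stands at 31.3 to 33.5 CPM in the WT PF libraries and at most 18.8 CPM in all others, whereas *Cd40* and *Lgals9* are lower in both AMPKβ1-/- groups than in both WT groups.

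PD-L2, the second PD-1 ligand, was near absent. *Pdcd1lg2* (chromosome 19, 29410919 to 29471161, plus strand) begins 22824 bases beyond the end of *Cd274* and had 1, 2 and 1 counts in WT vehicle, 0, 1 and 2 in WT PF, 0, 1 and 0 in AMPKβ1-/- vehicle and 1, 1 and 0 in AMPKβ1-/- PF libraries. These 10 counts over 12 libraries lie within the 3 counts that a count of 0 allows in a library, which was 0.196 to 0.321 CPM. No difference was detectable at this depth.

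The stretch before the start of *Cd274* is shown because it is shared with *Plgrkt*, a plasminogen receptor gene on the other strand. The annotated start of transcription of *Plgrkt* lies 65 bases from the start of *Cd274*, and the 2 genes point away from each other. It holds the 129 bases up to the RefSeq start of *Cd274* (GRCm38.p6, chr19:29367309-29367437, plus strand), and its first part overlaps an exon of a non-coding *Plgrkt* transcript. None of the motifs searched lies in it, so that it has no capitals.
Cd274: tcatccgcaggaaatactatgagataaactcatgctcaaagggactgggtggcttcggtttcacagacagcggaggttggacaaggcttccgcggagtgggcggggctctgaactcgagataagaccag
In the full 250 bases before the start, 1 match to the IRF core AANNGAAA lay at −175, within an untranslated exon of *Plgrkt*, and matches to this motif on either strand are held by 21.3% of 32851 RefSeq promoters. The gamma-activated site TTCNNNGAA, the interferon response element (GAAA repeated after 2 bases), the AP-1 motif TGANTCA, the sterol response element TCACNCCAC and the NF-κB consensus had no match in these 250 bases of *Cd274*. They are held by 7.02%, 2.98%, 6.75%, 1.05% and 3.90% of promoters.

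Of the genes within 100 kb of *Cd274* or *Pdcd1lg2*, *Plgrkt*, *Insl6*, *Jak2* and *Ric1* were tested. *Plgrkt* rose with PF in WT from 12.4 ± 3.22 to 19.2 ± 2.0 CPM, or by 0.62 in log2 units (adjusted p = 0.0269, SE 0.17). Its WT vehicle and WT PF libraries did not overlap, as was so in either direction for 32.2% of all tested genes. The call was lost with the GC and length trend removed (0.17, adjusted p = 0.505), when only the WT libraries were fitted (adjusted p = 0.0661) and on leaving out vehicle library 1 or 3 or PF library 2 or 3 of the WT (adjusted p from 0.0538 to 0.11). The knockout value was 0.01. *Insl6* (0.32), *Jak2* (0.39) and *Ric1* (0.26) had adjusted p values of 0.197, 0.163 and 0.147 in WT, and PF library 1 left out brought *Jak2* to 0.04 and *Ric1* to 0.0472, as did vehicle library 2 left out for *Jak2* (0.0468). *Jak2*, the kinase that carries the interferon-γ signal, was instead higher in AMPKβ1-/- than in WT BMDMs with vehicle, at 23.8 ± 2.27 against 10.1 ± 2.55 CPM (log2 fold change 1.24, SE 0.19, adjusted p = 0.000133). Removal of the GC and length trend was not examined for this difference, and it brought the WT PF value of *Jak2* from 0.39 to 0.10.

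Among the ligands other than *Cd274*, PF in WT BMDMs called 1 higher, *Cd86*, and 1 lower, *Icosl*, of 5 tested. In all tested genes 15.9% were called, 6.99% higher and 8.95% lower, so that 2 calls in 5 genes come from a comparison in which many genes passed. The median log2 fold change of the 5 was −0.14, against 0.00 (0.00483) for all tested genes. In AMPKβ1-/- BMDMs none of the 5 was called and their median was −0.09. There edgeR called 6 genes in all, 0.0554% of those tested, and 539 had an unadjusted p below 0.05, none of them a ligand of the 5. DESeq2 called 49 genes and limma-voom 27 in that comparison, again with 0 of the 5.

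**Figure D2:**
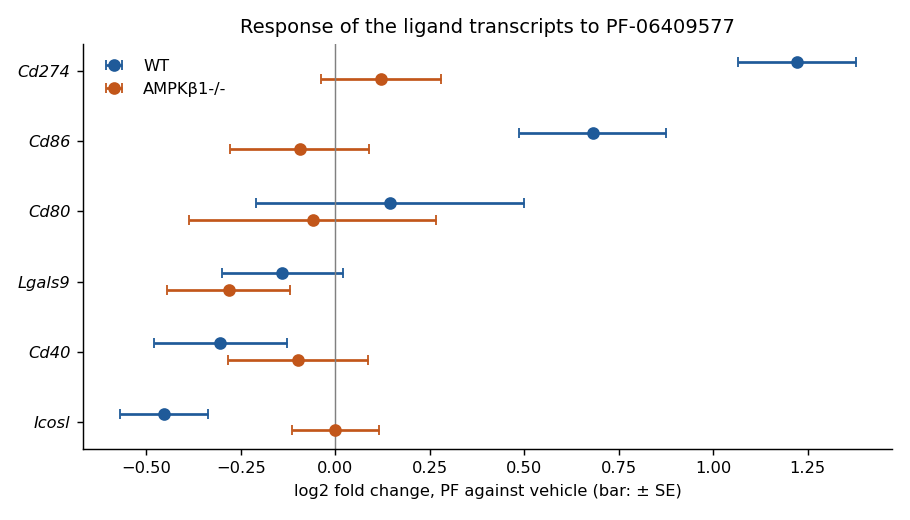
Log2 fold change of each ligand transcript with PF against vehicle in WT and AMPKβ1-/- BMDMs (points, bars ± SE from the fit to all 12 libraries). *Cd274* is at 1.22 in WT and 0.12 in AMPKβ1-/- BMDMs, *Cd86* at 0.68 and −0.09, and *Icosl* at −0.45 and 0.00.

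Of the CD28 ligands, *Cd86* was called with PF in WT and *Cd80* was not. *Cd86* (chromosome 16, 36603869 to 36666081, minus strand) had 6.84, 8.77 and 5.08 CPM in the WT vehicle libraries and 8.23, 12.5 and 12.6 CPM in the WT PF libraries, which overlap through the second vehicle and the first PF library. The AMPKβ1-/- libraries stood at 10.9, 11.9 and 11.8 CPM with vehicle and at 11.3, 10.8 and 10.2 CPM with PF. In WT it rose with PF, by 0.68 on the log2 scale (SE 0.19, adjusted p = 0.0303). The call was lost with the GC and length trend removed (0.33, adjusted p = 0.22), when only the 6 WT libraries were fitted (adjusted p = 0.0874), and on leaving out vehicle library 1 or 3 or PF library 2 or 3 of the WT (adjusted p from 0.0868 to 0.132). The GC content of *Cd86* transcripts was 43.2%, against a median of 49.7% over tested genes.

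*Cd86* was also higher in AMPKβ1-/- than in WT BMDMs with vehicle, with no overlap, by 0.74 (SE 0.19, adjusted p = 0.00442). Of all tested genes 59.7% were called in this comparison, and the libraries of 62.9% did not overlap. With the GC and length trend removed the *Cd86* difference became 0.14 (adjusted p = 0.519). With PF the genotypes differed by −0.04 (95% interval −0.43 to 0.35, adjusted p = 0.878), and with the trend removed *Cd86* was called lower in the knockout (−0.41, adjusted p = 0.0316). Averaged over treatments *Cd86* was higher in the knockout by 0.35 (adjusted p = 0.0304), a value that reversed to −0.13 (−0.135) with the trend removed. That call was also lost on leaving out vehicle library 1 or 3 or PF library 1 of the WT, or vehicle library 2 or 3 or PF library 1 or 2 of the knockout (adjusted p from 0.0506 to 0.0866). The difference between its PF responses, WT minus knockout, was 0.78 (SE 0.27) with an adjusted p of 0.21, and leaving out WT PF library 1 gave 0.0458.

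*Cd80* (chromosome 16, 38455561 to 38496335, plus strand) had 7 to 29 counts per library, and its means of 1.45 ± 0.661, 1.60 ± 0.226, 1.90 ± 0.192 and 1.82 ± 0.647 CPM in WT vehicle, WT PF, AMPKβ1-/- vehicle and AMPKβ1-/- PF came from libraries that overlapped between all groups. Its log2 fold change with PF was 0.14 in WT (95% interval −0.61 to 0.90, adjusted p = 0.785) and −0.06 in AMPKβ1-/- BMDMs (−0.75 to 0.64, adjusted p = 0.989). The WT interval is wide enough to hold a change of the size seen for *Cd86*, and a difference was not detectable at this depth.

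ICOS ligand was the member that fell with PF in WT. *Icosl* (chromosome 10, 78069302 to 78083913, plus strand) had 31.1, 33.0 and 34.2 CPM in WT vehicle and 27.2, 23 and 21.6 CPM in WT PF libraries, which did not overlap. Such separation held for 32.2% of all tested genes, 18.1% in this direction. The log2 fold change was −0.45 (SE 0.12, adjusted p = 0.0207). The AMPKβ1-/- libraries stood at 34.5, 30.5 and 26.5 CPM with vehicle and at 29.8, 32.8 and 28.9 CPM with PF, and the log2 fold change there was 0.00 (95% interval −0.24 to 0.24). In WT the call stood at an adjusted p of 0.0448 with the GC and length trend removed, and was lost when only the WT libraries were fitted (0.0651) and on leaving out vehicle library 3 (0.0676), PF library 2 (0.0802) or PF library 3 (0.107) of the WT. The difference between its responses was −0.45 (SE 0.16, adjusted p = 0.233). In all, edgeR called 0 of the 5 ligands for a difference between the responses, against 0.416% of tested genes. The unadjusted p was below 0.05 for *Cd86* and *Icosl*, as it was for 1550 of the 10822 tested genes.

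Within each library the ratio of *Cd86* to *Icosl* counts does not depend on scaling. This ratio, chosen after the values were seen, was 0.148 to 0.266 in WT vehicle, 0.303 to 0.584 in WT PF, 0.317 to 0.444 in AMPKβ1-/- vehicle and 0.330 to 0.380 in AMPKβ1-/- PF libraries. The WT vehicle libraries stood below the rest. The ratio of *Cd86* to *Cd40* was 0.161 to 0.343 in WT vehicle and 0.340 to 0.713 in WT PF libraries, which overlapped. *Cd86* and *Icosl* were the members called in opposite directions with PF in WT. A shift of their ratio there follows from that choice and adds no support to the calls. The pair differs in GC content (43.2% for *Cd86* and 52.5% for *Icosl* transcripts), and once the GC and length trend was removed the log2 fold changes of knockout against WT with vehicle were 0.14 for *Cd86* and 0.17 for *Icosl*.

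CD40 and galectin-9 followed genotype. *Cd40* (chromosome 2, 165055627 to 165072948, plus strand) had 20.7, 25.6 and 31.5 CPM in WT vehicle, 24.2, 21.2 and 17.7 in WT PF, 14.7, 16.7 and 15.2 in AMPKβ1-/- vehicle and 15.9, 16.9 and 10.6 in AMPKβ1-/- PF libraries. Every knockout library lay below every WT library. *Lgals9* (chromosome 11, 78962974 to 78984946, minus strand) had 226, 244 and 281 CPM in WT vehicle, 273, 219 and 190 in WT PF, 164, 161 and 162 in AMPKβ1-/- vehicle and 148, 155 and 96.3 in AMPKβ1-/- PF libraries. The same separation by genotype is seen, and the third AMPKβ1-/- PF library was the lowest of its group for both genes.

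With vehicle, knockout against WT called 3 of the 5 ligands other than *Cd274*. *Cd40* was lower at −0.74 on the log2 scale (SE 0.18, adjusted p = 0.00269), *Lgals9* at −0.63 (SE 0.16, adjusted p = 0.00477), and *Cd86* was higher as given above. In this comparison 59.7% of all tested genes were called, and the libraries of 62.9% did not overlap, so that 3 of 5 is near the background. With the GC and length trend removed *Cd40* stayed lower (−0.67, adjusted p = 0.00618), whereas *Lgals9* missed the threshold (−0.36, adjusted p = 0.119).

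With PF, knockout against WT again called 3 of 5, against 47.1% of all tested genes, and the libraries of 59.9% did not overlap. *Lgals9* was lower (−0.77, SE 0.16, adjusted p = 0.002), *Cd40* was lower (−0.53, SE 0.18, adjusted p = 0.0253) and *Icosl* was higher (0.35, SE 0.12, adjusted p = 0.0216). *Cd40* lost this call with library size alone as the scaling (adjusted p = 0.11), with the trend removed (0.0615) and on leaving out PF library 1 (0.108) or 2 (0.0615) of the WT or PF library 3 of the knockout (0.124). *Icosl* lost it on leaving out PF library 2 (0.0715) or 3 (0.069) of the WT or PF library 2 of the knockout (0.086).

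Averaged over treatments, *Lgals9* (−0.70, SE 0.11, adjusted p = 0.000133) and *Cd40* (−0.63, SE 0.13, adjusted p = 0.000455) were lower in the knockout, with an adjusted p of at most 0.011 and 0.00801 over the alternatives of fit, scaling, filter and libraries. In that comparison 66.9% of all tested genes were called. For *Icosl* (0.12) and *Cd80* (0.27) the adjusted p values were 0.189 and 0.331, and *Icosl* was called higher under library size scaling (0.30, adjusted p = 0.00414) and with the trend removed (0.35, adjusted p = 0.000299). Neither *Cd40* nor *Lgals9* was called with PF in WT (log2 fold changes −0.30 and −0.14, adjusted p = 0.224 and 0.541). With PF in the knockout, *Cd40* had −0.10 (adjusted p = 0.985) and *Lgals9* −0.28 (adjusted p = 0.982). Its AMPKβ1-/- PF libraries nevertheless all lay below the vehicle libraries, as was so in either direction for 14.5% of tested genes.

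The promoter of *Lgals9* is shown because the gene moved with interferon-inducible genes across the libraries. The 228 bases (GRCm38.p6, chr11:78984947-78985174, minus strand) are written in the direction of transcription and their last base lies at −23 from the RefSeq start. Capitals mark an IRF core on the shown strand at −151 and an interferon response element on the other strand at −55, which contains the second IRF core.
Lgals9: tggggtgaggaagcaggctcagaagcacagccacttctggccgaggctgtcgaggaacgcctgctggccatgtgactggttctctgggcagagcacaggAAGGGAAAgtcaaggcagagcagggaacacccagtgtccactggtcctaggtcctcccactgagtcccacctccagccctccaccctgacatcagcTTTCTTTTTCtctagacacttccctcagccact
The interferon response element, GAAA repeated after 2 bases on either strand, is held by 2.98% of promoters over 250 bases and the IRF core by 21.3%. A match describes letters and not a used site. Of the other members in the promoter table, the promoters of *Cd80* and *Icosl* had no match to either motif, and that of *Pdcd1lg2* had 1 IRF core at −35.

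Per kilobase of the longest annotated transcript, *Lgals9* was the most abundant of the ligands in every group. In WT vehicle it stood at 158 ± 17.7 CPM per kb, followed by *Icosl* (11.6 ± 0.558), *Cd40* (8.68 ± 1.80), *Cd274* (3.86 ± 1.15), *Cd86* (2.72 ± 0.728) and *Cd80* (0.457 ± 0.208). In WT PF the order was *Lgals9* (143 ± 26.4), *Cd274* (9.01 ± 0.333), *Icosl* (8.51 ± 1.03), *Cd40* (7.05 ± 1.09), *Cd86* (4.37 ± 0.978) and *Cd80* (0.504 ± 0.0713). *Cd274* thus went from the fourth to the second place, although *Cd274* and *Icosl* with PF differed by less than the SD of *Icosl*. In AMPKβ1-/- BMDMs *Icosl* (10.8 ± 1.41 with vehicle and 10.8 ± 0.727 with PF) stayed second, and *Cd40*, *Cd86* and *Cd274* lay between 4.02 and 5.20 CPM per kb in both treatments.

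Of 22 other costimulatory and coinhibitory ligands, 12 were tested, and PF in WT called 2 higher and 3 lower, with a median log2 fold change of −0.14 (−0.135). Of all tested genes 6.99% were called higher and 8.95% lower there. The higher ones were *Tnfsf9*, the ligand of 4-1BB (0.67, SE 0.21, adjusted p = 0.0473), and *Cd48*, the ligand of CD244 (0.47, SE 0.14, adjusted p = 0.0418). *Tnfsf9* had 29 to 34 counts in WT vehicle and 48 to 67 in WT PF libraries, and missed the threshold under DESeq2 (adjusted p = 0.061), under limma-voom (0.0548), with no filter (0.0527), when only the WT libraries were fitted (0.0869) and without any 1 of the WT libraries (0.0573 to 0.153), AMPKβ1-/- vehicle library 2 or any AMPKβ1-/- PF library (0.0578 to 0.0625). *Cd48* reversed to −0.03 with the GC and length trend removed (adjusted p = 0.887) and lost its call when only the WT libraries were fitted (0.0833) and on leaving out vehicle library 1 or PF library 2 or 3 of the WT (0.107 to 0.174). Without vehicle library 2 or 3 or PF library 2 or 3 of the AMPKβ1-/- its adjusted p was 0.0507 to 0.0566.

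The lower ones were *Icam1*, the ligand of the integrin LFA-1, *Nectin2*, a ligand of TIGIT, and *Vsir*, which encodes the inhibitory ligand VISTA. *Icam1* fell from 210 ± 18.5 to 144 ± 6.08 CPM (−0.55, SE 0.08, adjusted p = 0.00129). *Nectin2* fell from 29.0 ± 2.74 to 19.5 ± 1.92 CPM (−0.57, SE 0.12, adjusted p = 0.00773), and its adjusted p was 0.0503 on leaving out PF library 3 of the WT. *Vsir* fell from 630 ± 44.6 to 464 ± 20.2 CPM (−0.44, SE 0.07, adjusted p = 0.00259). Removal of the GC and length trend brought the values of *Icam1*, *Nectin2* and *Vsir* to −0.34 (−0.335), −0.31 and −0.26, each still called. In the knockout *Icam1*, *Nectin2* and *Vsir* had log2 fold changes of −0.02, −0.02 and −0.01, and none of the 12 was called there or for a difference between the responses.

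**Figure D3:**
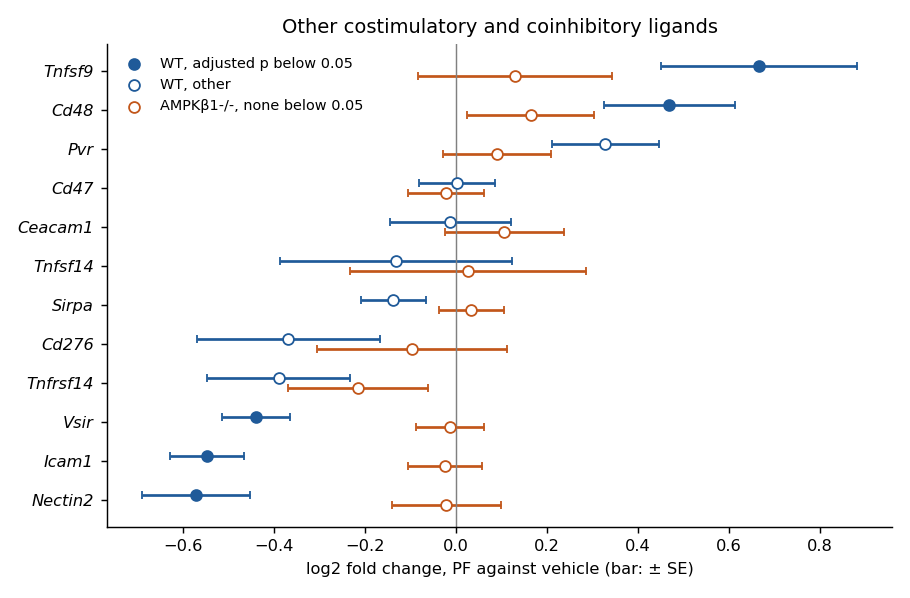
Log2 fold change with PF against vehicle of the 12 other costimulatory and coinhibitory ligands that passed the filter, in WT (blue, filled where the adjusted p was below 0.05) and AMPKβ1-/- BMDMs (orange, none below 0.05), with bars ± SE. *Icam1*, *Nectin2* and *Vsir* lie between −0.57 and −0.44 in WT and within 0.03 of 0 in AMPKβ1-/- BMDMs.

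The route from the interferon-γ receptor to IRF1 was tested with 11 genes, and PF in WT called 0 higher and 1 lower. Of all tested genes 6.99% were called higher and 8.95% lower there, so that these counts are near the background. The median was −0.02. The higher calls numbered 1 under upper quartile scaling, library size scaling and DESeq2 and without vehicle library 2 or PF library 1 of the WT or vehicle library 1 of the knockout, and the lower calls numbered 2 without PF library 1 of the WT. *Irf1*, the transcription factor that acts on the PD-L1 promoter, stood at 163 CPM with vehicle against 161 CPM with PF (log2 fold change −0.02, adjusted p = 0.932). *Stat3*, a transcription factor activated by cytokines, fell by 0.31 on the log2 scale (SE 0.09, adjusted p = 0.0338), with adjusted p values of 0.072 under library size scaling, 0.139 with the trend removed and 0.0996 when only the WT libraries were fitted. Leaving out vehicle library 1 or 3 or PF library 2 or 3 of the WT gave 0.076 to 0.139. Of 6 genes whose products stabilize, modify or degrade the PD-L1 protein, none was called with PF in WT, and the smallest p belonged to *Cops5*, a deubiquitinating subunit of the COP9 signalosome (0.19, adjusted p = 0.158). With 15.9% of all tested genes called there, no call among 6 is near the background. Without PF library 1 of the WT, 2 of the 6 were called higher and 1 lower.

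Downstream of CD40, 5 of 10 signalling genes were called lower with PF in WT and 0 higher, against 8.95% and 6.99% of all tested genes, with a median of −0.21 (−0.215). The list was written with earlier results of these data known, and the paper had reported *Nfkb2* as lower, so that these counts are a description. The lower calls numbered 1 with only the WT libraries fitted or without WT PF library 3. They numbered 2 without WT PF library 2 and 3 without WT vehicle library 3. The higher calls numbered 1 under DESeq2 and without vehicle library 2 or PF library 1 of the WT, and *Birc2*, an inhibitor of apoptosis protein, stood at 0.55 with an adjusted p of 0.0685 from edgeR. The genes called lower were the adaptors *Traf1* (−0.44, adjusted p = 0.00822) and *Traf2* (−0.29, adjusted p = 0.0285), the kinase *Map3k14* (−0.44, adjusted p = 0.0164), and the NF-κB subunits *Relb* (−0.45, adjusted p = 0.0104) and *Nfkb2* (−0.46, adjusted p = 0.0066). When only the WT libraries were fitted, the adjusted p values of *Traf1*, *Traf2*, *Map3k14* and *Relb* rose to 0.0534, 0.12, 0.0549 and 0.0515. With the trend removed those of *Map3k14* and *Relb* were 0.319 and 0.0709, and the log2 fold changes of *Traf1* and *Nfkb2* shrank to −0.27 (adjusted p = 0.0334) and −0.18 (adjusted p = 0.0498). *Traf2* also missed the threshold under library size scaling (0.0617) and on leaving out vehicle library 1 or 3 or PF library 2 or 3 of the WT (0.07 to 0.128), and without the third WT PF library so did *Traf1* (0.0509), *Map3k14* (0.0814) and *Relb* (0.062). *Map3k14* (0.0723) and *Relb* (0.0525) also missed it without the second WT PF library, and *Map3k14* (0.064) without the third WT vehicle library. In the knockout 0 of the 10 were called.

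Of the receptors on T cells for these ligands, 2 of 6 passed the filter. *Cd28* rose with PF in WT from 23.1 ± 2.68 to 43.4 ± 16.2 CPM (log2 fold change 0.91, SE 0.21, adjusted p = 0.0173), with 200 to 284 counts in vehicle and 339 to 793 counts in PF libraries. Leaving out vehicle library 1 (0.0632) or 3 (0.0652) or PF library 3 (0.051) of the WT raised its adjusted p past the threshold, and without the last of these its log2 fold change was 0.59 (0.585). With the trend removed it was 0.48 (adjusted p = 0.0246). In the knockout it had 26.6 ± 3.64 and 33.5 ± 3.06 CPM (0.32, adjusted p = 0.982). The summed T cell markers stayed at or under 1.20 CPM in every library. *Havcr2*, which encodes TIM-3, had a log2 fold change of 0.26 in WT (adjusted p = 0.278).

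The genes whose log2 CPM followed *Cd274* most closely over the 12 libraries were *Bhlhe41* (Pearson r = 0.937), *Insig1* (0.931), *Plk2* (0.921), *Dusp4* (0.917) and *Sqle* (0.916). *Insig1* and *Sqle* belong to sterol regulation and synthesis, *Dusp4* encodes a MAP kinase phosphatase, *Plk2* a polo-like kinase and *Bhlhe41* a transcriptional repressor. Their log2 fold changes with PF in WT were 0.67, 0.99, 0.58, 0.35 and 0.54 in the order *Bhlhe41*, *Insig1*, *Plk2*, *Dusp4* and *Sqle*, all smaller than that of *Cd274*. In AMPKβ1-/- BMDMs they were 0.07, −0.08, 0.24, 0.09 and −0.01 in the same order. These genes were chosen for likeness to a gene that was itself chosen by its response, so that their responses are given without a test. The points share 12 libraries and their genotype, treatment and depth, and the correlations are a description.

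The other ligands had companions of their own. *Lgals9* was most like *Irf7* (r = 0.988) and *Oas1a* (0.981), both interferon-inducible, and *Cd40* was most like *Rubcnl* (0.963) and *Lgals9* itself (0.960). *Cd86* was most like *Rps27a* (0.958), a ribosomal protein gene, and *Cct4* (0.955), a chaperonin subunit gene. *Icosl* was most like *Phldb1* (0.951) and *Il10ra* (0.949), the interleukin-10 receptor gene, and *Cd80*, with its few counts, had its highest values with *Zfp128* (0.843) and *Palb2* (0.840). With PF in WT *Il10ra* had a log2 fold change of −0.50. *Rps27a* and *Cct4* had log2 fold changes of 0.29 and 0.45 there, which became −0.17 and 0.19 once the GC and length trend was removed.

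The size of the WT responses depended on the settings. Over 22 alternatives the WT response of *Cd274* stayed between 0.97 and 1.49, that of *Cd86* between 0.33 and 0.90, and that of *Icosl* between −0.56 and −0.33 on the log2 scale. The sign was kept for all of *Cd274*, *Cd86* and *Icosl* in WT. *Cd86* and *Icosl* lost their calls under some settings. *Cd274* was not tested and had no call to keep or lose, and its range comes from the libraries that chose it.

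**Figure D4:**
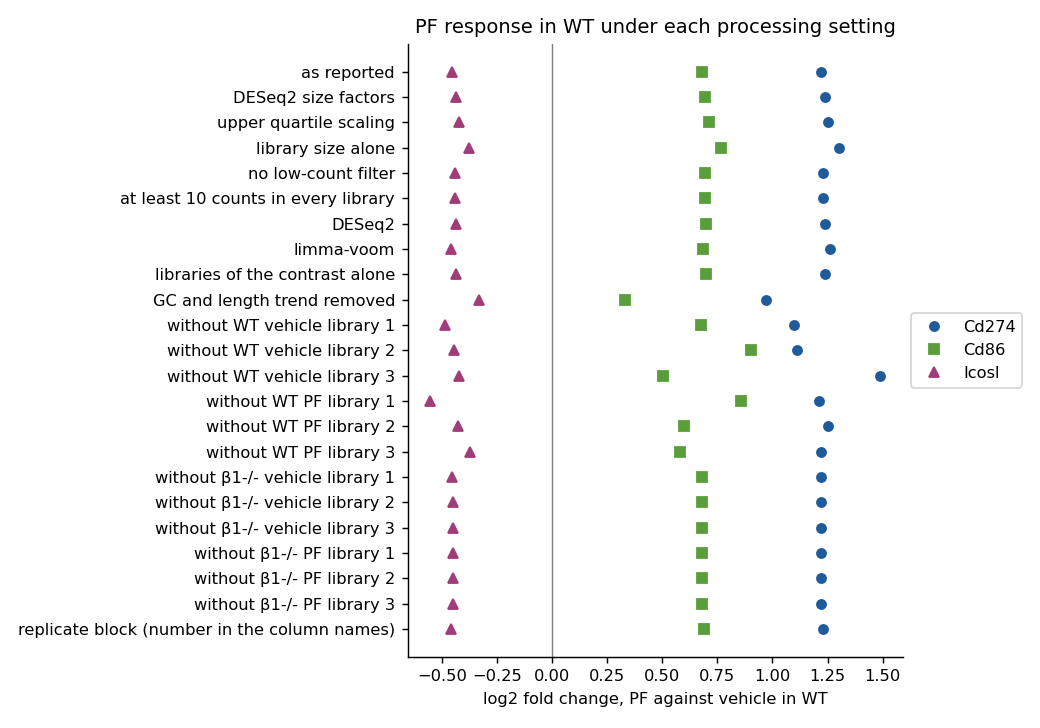
Log2 fold change with PF against vehicle in WT BMDMs for *Cd274*, *Cd86* and *Icosl* (1 point per processing setting, named on the vertical axis). *Cd274* ranges from 0.97 to 1.49 and stays above *Cd86*, which ranges from 0.33 to 0.90, and *Icosl* ranges from −0.56 to −0.33.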

How the data were processed

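RNA sequencing libraries were made from total RNA of BMDMs for 12 samples with a directional kit. The authors used Trim Galore for trimming and Salmon for quantification, and the deposited values are Salmon's estimated counts per gene, held as whole numbers without normalization. The genome build and Salmon version are not given in the sources used here. Count columns were assigned to the 4 groups by genotype and treatment in their names, and libraries are numbered within a group only as names. No pair of libraries in a group was identical or within sampling noise. Columns not used numbered 0.

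The main test was edgeR 4.0.16 in R 4.3.3 (TMM, filterByExpr by group, robust quasi-likelihood test, one fit of 4 group means to 12 libraries), adjusted over 10822 genes, and the script was tested on simulated data. DESeq2 1.42.0, limma 3.58.1 (voom), other scalings and filters, the libraries of a contrast alone, an offset for GC content and gene length (splines with 5 degrees of freedom), each library left out, and the study's threshold of 0.8 on the absolute log2 fold change were alternatives, and a block for the number in the column names was added after the data were seen. SE are approximate. Log2 CPM used a prior count of 2. Names, positions and GC content came from GENCODE M21 on GRCm38, where 12703 symbols matched directly and 194 through older symbols, and promoters from RefSeq on GRCm38.p6, which held 5 of the 7 members. Floors of 3 counts cover counting error only.

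All members, the list genes called with PF (at most 5 per list, or the gene with the smallest p), the 5 genes most like *Cd274* and 2 most like each other member, and neighbours within 100 kb were named. Members and lists were chosen with earlier results of these data known.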

Additional observations from a re-analysis of the deposited data

How the results depend on the processing

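Of the ligands other than *Cd274*, 2 were called with PF in WT, but 0 when only the WT libraries were fitted, 1 with the GC and length trend removed, 0 with the study's log2 fold change threshold of 0.8 added, and 0 to 2 on leaving out single libraries. Knockout against WT with vehicle called 1 with the trend removed, and with that threshold this count, the one with PF and the averaged one were each 0. Leaving out single libraries gave 1 to 3 with PF and 0 to 1 for the difference between the responses. With the trend removed the sign reversed for *Cd80* (−0.213 for PF in WT, −0.313 for knockout against WT with vehicle, −0.301 with PF, −0.307 averaged, −0.0122 for the difference), for the averaged *Cd86* (−0.135), and for *Zfp128* (−0.0773), *Rps27a* (−0.168), *Irf7* (0.0494) and *Cd48* (−0.0335) with PF in WT. Scaling by library size alone shifted the median of all genes by 0.21 log2 units with vehicle, 0.15 with PF and 0.18 averaged, turned knockout against WT to 0.106 for *Icosl* with vehicle (0.171 with the trend removed) and to 0.103 for *Cd86* with PF, and in WT gave 1045 genes higher and 587 lower with PF, against 756 and 969 with TMM. The PF value of *Icosl* in the knockout, near 0, took the other sign under DESeq2's size factors (0.0117), library size (0.0183), no filter (0.00278), a minimum of 10 counts (0.00509), DESeq2 (0.0115), limma-voom (0.00398) and the trend removed (0.0272). On leaving out single libraries, uncalled values that changed sign were *Cd80* for PF in WT (−0.186 to 0.43), PF in the knockout (−0.373 to 0.161), knockout against WT with PF (−0.144 to 0.389) and the difference (−0.127 to 0.518), *Cd40* (−0.225 to 0.0785) and *Icosl* (−0.0867 to 0.0936) for PF in the knockout, *Cd86* for knockout against WT with PF (−0.214 to 0.0704), *Lgals9* for the difference (−0.0441 to 0.267), and *Zfp128* (−0.0499 to 0.421) and *Palb2* (−0.0977 to 0.324) for PF in WT. All genes called with PF in WT numbered 786 with the trend removed, 419 with the WT libraries alone and 1725 as reported. The cause of these changes was not tested. *Cd80* and *Pdcd1lg2* are limited by depth. With the number in the names of the count columns as a replicate block, a fit chosen after seeing the data, 1983 genes were called with PF in WT and 0 with PF in the knockout (6 without the block), *Icosl* with PF in the knockout stood at 0.00437 and *Tnfsf9* lost its call (adjusted p = 0.0588), and no other call on a ligand or named gene changed. Of 18 pairs of libraries with the same number, 6 had deviations from their group means correlated above 0.1 (range −0.184 to 0.317), and 6 of 12 libraries correlated best with one of their own number, so that the numbers were not taken to pair the libraries.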
